A study of Saccharomyces cerevisiae with 6 samples.

Results

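The genes followed here are 39 general stress and glycogen genes of the budding yeast Saccharomyces cerevisiae, out of 7126 gene rows in the count table. They were chosen by name, with no threshold on their values: genes of the kind switched on by the transcription factors Msn2 and Msn4, the genes of both factors, and the enzymes of glycogen, with chaperone, trehalose and glycerol genes left out. Earlier results of these data were known when the genes were chosen. All 39 passed the filter on low counts. The R256C strain carries the R256C substitution in actin, in which arginine is replaced by cysteine, and was compared with a wild-type strain (WT); the labels give both as S288C. Each strain is represented by 3 libraries, labelled as biological replicates, from untreated cultures in the rich glucose medium YPD at 30 °C that had been diluted to an OD660 of 0.3 and were harvested in early exponential growth at an OD660 of 0.9. The route by which the substitution was made and the number of isolates per strain are items not given in the sources used here, so its effect and that of any further difference in background cannot be told apart.

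Poly(A) RNA was sequenced to 8967232 to 11935735 reads in genes per R256C library and 10750023 to 16905818 per WT library. Levels are given as CPM, the counts of a gene scaled to a fixed library size after correction of that size by edgeR's TMM factors. Genes typical of mating type a summed to 3890 to 4230 CPM in R256C and 3760 to 4100 CPM in WT, and those typical of mating type alpha to 116 to 126 CPM in R256C and 104 to 116 CPM in WT. ACT1, the actin gene, stood at 1354, 1373 and 1404 CPM in R256C, against 1512, 2094 and 1608 CPM in WT. By edgeR's quasi-likelihood test its log2 fold change of -0.34 (SE 0.16) was not past the threshold (adjusted p = 0.124), although every R256C library lay below every WT library and DESeq2's test passed it (-0.34, adjusted p = 0.0466). Since a point substitution need not change the amount of mRNA, this level does not check the strain labels.

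Msn2 and Msn4 are related zinc finger proteins that protein kinase A keeps out of the nucleus while glucose is plentiful. When glucose runs low, or under heat, oxidants or salt, they enter the nucleus and bind the stress response element (STRE), whose core reads AGGGG on either strand. Many of their target genes are low in fast growth on glucose and rise as cells approach stationary phase, when yeast also builds up glycogen as a reserve of carbohydrate.

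The promoters of 4 genes, picked after the values had been seen, are shown because they span what was measured: MSN4 had the largest change of the group, GSY2 is the glycogen gene with the largest change, CTT1 is a standard reporter of Msn2 and Msn4 activity, and HSP12 is a standard reporter whose level varied most among the WT cultures. Each is the 300 bases before the start codon on the plus strand of R64, read from the RefSeq genome, and capitals mark STRE cores (AGGGG, or CCCCT on the other strand). The windows lie at chrXI:322928-323227, chrXII:660416-660715, chrVII:654334-654633 and chrVI:106956-107255.
MSN4: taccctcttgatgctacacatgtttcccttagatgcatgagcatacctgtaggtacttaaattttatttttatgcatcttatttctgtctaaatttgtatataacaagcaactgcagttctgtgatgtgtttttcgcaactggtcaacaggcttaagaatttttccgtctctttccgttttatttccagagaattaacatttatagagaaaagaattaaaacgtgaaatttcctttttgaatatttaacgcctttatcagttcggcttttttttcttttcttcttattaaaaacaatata
GSY2: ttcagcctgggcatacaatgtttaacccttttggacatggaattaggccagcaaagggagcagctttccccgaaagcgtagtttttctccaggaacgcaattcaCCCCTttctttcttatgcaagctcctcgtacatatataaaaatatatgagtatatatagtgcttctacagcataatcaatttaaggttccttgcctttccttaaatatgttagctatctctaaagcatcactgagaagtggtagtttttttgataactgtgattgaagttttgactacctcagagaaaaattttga
CTT1: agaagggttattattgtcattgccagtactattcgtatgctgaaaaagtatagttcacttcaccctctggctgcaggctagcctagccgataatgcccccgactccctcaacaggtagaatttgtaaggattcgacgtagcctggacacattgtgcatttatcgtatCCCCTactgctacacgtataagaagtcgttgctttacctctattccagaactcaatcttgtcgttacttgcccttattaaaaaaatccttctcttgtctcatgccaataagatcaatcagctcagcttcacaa
HSP12: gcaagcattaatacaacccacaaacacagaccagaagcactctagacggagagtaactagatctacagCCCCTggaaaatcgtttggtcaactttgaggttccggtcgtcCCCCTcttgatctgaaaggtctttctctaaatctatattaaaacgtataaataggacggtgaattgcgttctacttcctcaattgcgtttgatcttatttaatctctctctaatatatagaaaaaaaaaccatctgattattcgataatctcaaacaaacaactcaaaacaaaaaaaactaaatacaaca
The MSN4 window holds no STRE core, those of GSY2 and CTT1 hold 1 each and that of HSP12 holds 2. From 250 bases before the start codon to 50 after it, 26 of the 39 genes (66.7%) had at least 1 core, against 1296 of 5987 coding genes (21.6%). In the 300 bases before the start codon, the window printed above and added later, the counts were 30 of 39 (76.9%) and 1328 of 5987 (22.2%). Within 500 bases before the start codon, 34 of 39 (87.2%) had at least 1 core and 23 (59.0%) had 2 or more, against 34.1% and 8.14% of 5986 coding genes. A match describes the letters alone and does not show that a factor binds there.

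The cultures of each strain differed from each other in these genes, which bears on every comparison that follows. WT 2 was the lowest of the WT libraries for 34 of the 39 genes, where it was lowest for 47.1% of all genes tested, and WT 1 was the highest for 33, against 39.9% of all genes. In R256C the library of replicate 2 was the highest for 34 of the 39 genes, against 34.1% of all genes. The highest library exceeded the lowest by a median of 1.36-fold in R256C and 1.64-fold in WT over the 39 genes, compared with 1.14-fold and 1.26-fold over all genes. WT 2 also stood apart in other ways: it was the deepest library, its TMM factor was 0.8995 where the others had 0.995 to 1.0399, and 3.15% of its uniquely placed reads lay outside genes where the others had 3.718 to 4.07%. The part of these differences in the results was not tested, and the density of each single culture is not given in the sources used here.

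**Figure D1:**
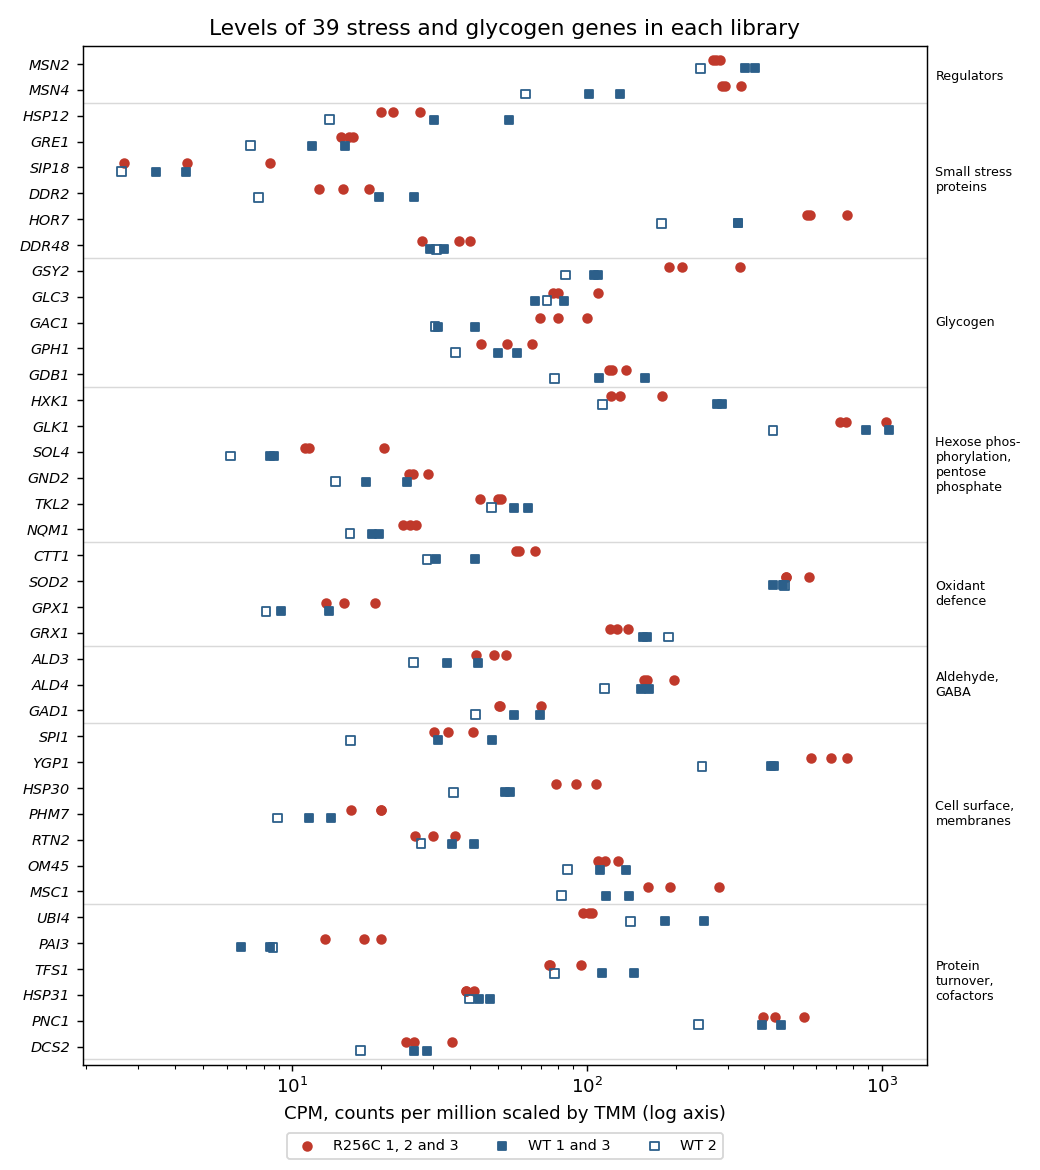
Level of each of the 39 genes in every library, in CPM on a log axis, grouped by role; red circles are the R256C libraries, blue squares the WT libraries, with WT 2 open. The open square lies left of both other WT squares for 34 genes, and for MSN4, HOR7, GSY2, GAC1 and HSP30 all red circles lie right of all squares.

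Over the group, more genes rose than fell in R256C. Of the 39, 12 rose, 2 fell and 25 did not pass at an adjusted p under 0.05 (edgeR, Benjamini-Hochberg over all 6337 genes tested), which is 30.8% and 5.13%, where 21.2% of all genes tested rose and 21.4% fell. With libraries scaled by their totals alone the group again had 12 rises and 2 falls, while 25.9% of all genes rose and 14.0% fell. The median log2 fold change was 0.26 for the group and -0.01 for all genes tested. The genes that rose did so by 1.39-fold to 3.12-fold, 5 of them by at least 2-fold (12.8% of the 39, against 5.76% of all genes tested). All R256C libraries lay above all WT libraries for 14 of the 39 and below them for 2, while 27.7% and 27.3% of all genes tested did so. Without WT 2, 14 rose and 8 fell (35.9% and 20.5%), against 29.4% and 29.5% of all genes tested without it, and the median was 0.17. That fit rests on WT 1 and WT 3 alone in WT. HSP12, DDR2, HXK1, TKL2, TFS1 and MSN2 passed in it and in no other of the 13 alternative fits. Without R256C replicate 2, 7 rose and 2 fell (17.9% and 5.13%), against 14.9% and 13.5% of all genes tested without it, and the median was 0.09. The sum over the 39 genes was 5509, 6863 and 5279 CPM in R256C, against 5562, 3374 and 4965 CPM in WT, so the strains overlapped in the total. Per kb of coding length the median over the group was 70.0 CPM per kb in R256C and 47.2 CPM per kb in WT. Each strain was ranked apart, and these are values of different genes (HSP12 in R256C, GSY2 in WT). Their ratio is therefore not the change of a typical gene. The medians over the 5805 coding genes tested were 66.1 CPM per kb in R256C and 66.4 CPM per kb in WT.

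**Figure D2:**
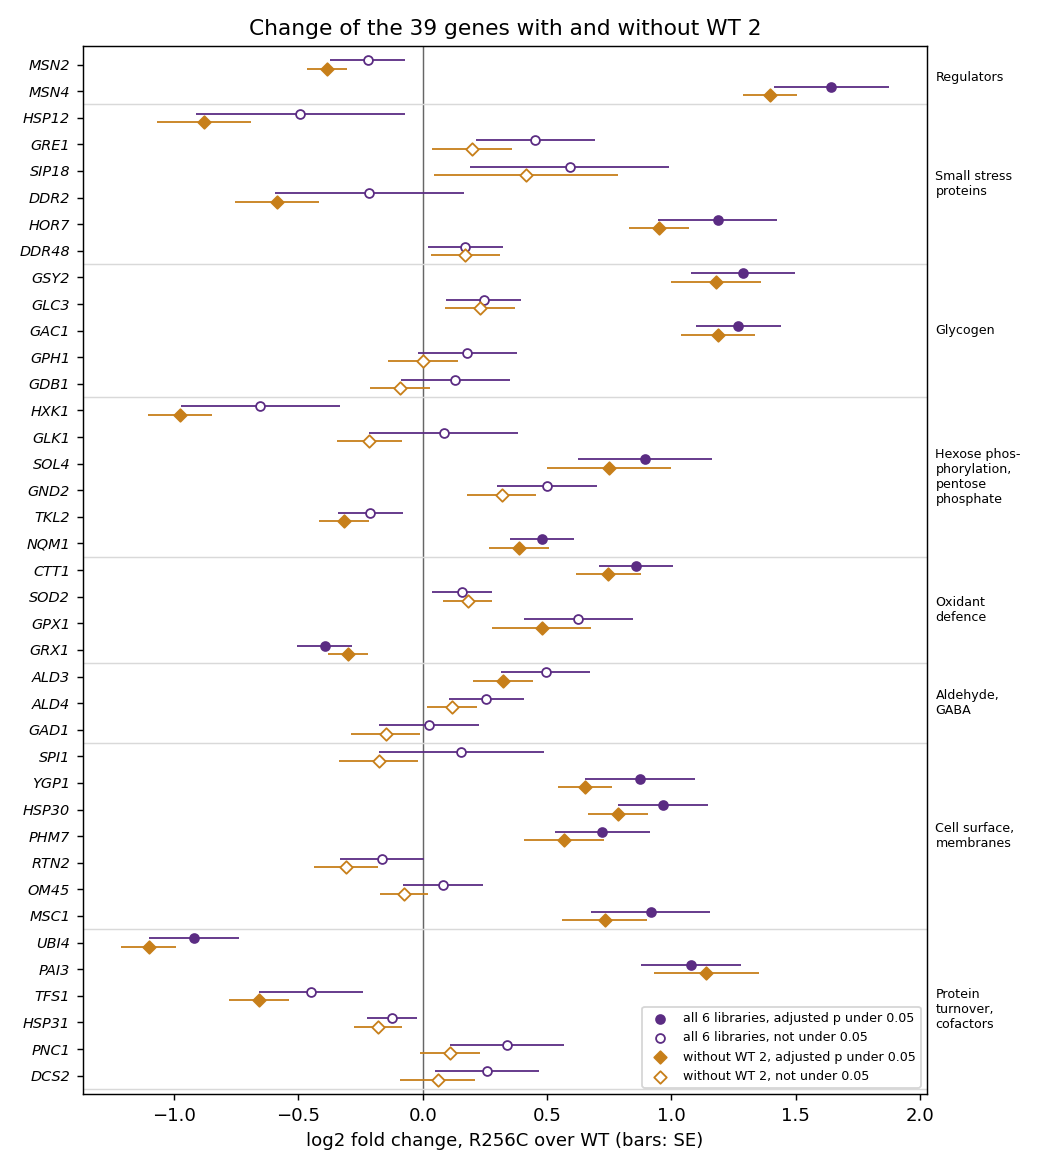
Log2 fold change (R256C over WT, bars are SE) of each gene with all 6 libraries (purple circles) and without WT 2 (orange diamonds); filled symbols have an adjusted p under 0.05. The 12 genes that rose are filled in both fits, and HSP12, DDR2, HXK1, TKL2, TFS1 and MSN2 lie below 0 and are filled only without WT 2.

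The paralogous genes of the regulators differed. MSN4 (YKL062W, chromosome XI, 323228 to 325120, plus strand) stood at 295, 333 and 288 CPM in R256C, against 130, 62.0 and 102 CPM in WT. Every R256C culture was above every WT culture, and the rise was 3.12-fold (log2 fold change 1.64 with SE 0.23, adjusted p = 0.000883 by edgeR), the largest of the 39. It passed in all 13 alternative fits and was 1.40 without WT 2. MSN2 (YMR037C, chromosome XIII, 344403 to 346517, minus strand) had 274, 282 and 267 CPM in R256C, against 373, 244 and 344 CPM in WT. Here the strains overlapped through WT 2, and the log2 fold change of -0.22 (SE 0.15) did not pass (adjusted p = 0.269), while without WT 2 it was -0.39 and passed (adjusted p = 0.000852). Per kb, MSN4 averaged 161 CPM in R256C and 51.7 CPM in WT, and MSN2 130 CPM in R256C and 151 CPM in WT, so that the order of these genes was opposite in the 2 strains. The log2 ratio of MSN4 to MSN2 was 0.15 ± 0.074 in R256C and -1.74 ± 0.22 in WT (SD, n = 3 each; exact permutation p = 0.1, the smallest that 3 against 3 allows).

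Of 6 small stress proteins, 1 rose (16.7%, against 21.2% of all genes tested) and 5 did not pass. HSP12 (YFL014W, chromosome VI, 107256 to 107585, plus strand), a membrane-stabilising protein and a common reporter of general stress, had 22.0, 27.2 and 20.1 CPM in R256C, against 54.6, 13.4 and 30.2 CPM in WT. The R256C cultures lay between WT 2 and WT 3, and WT cultures differed 4.09-fold, the widest span of the 39 genes in WT. Its log2 fold change was -0.49 (SE 0.42, edgeR adjusted p = 0.368) with all libraries, -0.88 without WT 2 (adjusted p = 0.00128) and 0.11 without WT 1 (adjusted p = 0.780). DDR2, a small protein first known from its response to DNA damage, showed the same arrangement at 18.2, 14.9 and 12.3 CPM in R256C, against 26.0, 7.70 and 19.6 CPM in WT (log2 fold change -0.21, SE 0.38, adjusted p = 0.672). It was -0.59 without WT 2 (adjusted p = 0.00828) and 0.18 without WT 1 (adjusted p = 0.684). HOR7, the paralogue of DDR2, is known from hyperosmotic stress. It stood at 560, 762 and 570 CPM in R256C, against 326, 180 and 326 CPM in WT, and rose 2.28-fold (log2 fold change 1.19, SE 0.24, adjusted p = 0.00470). Per kb it was the most abundant of the 39, with 3500 CPM in R256C and 1540 CPM in WT. The strains did not overlap in HOR7, and it passed in all 13 alternative fits.

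The hydrophilins GRE1 and SIP18, small proteins that protect against drying, were at the low end and did not pass. GRE1 averaged 15.5 ± 0.724 CPM in R256C and 11.4 ± 3.98 CPM in WT (SD, n = 3 each; log2 fold change 0.45, adjusted p = 0.167), and it passed without WT 1 (0.73, adjusted p = 0.0213). SIP18 had 25 to 98 reads per library and averaged 5.18 ± 2.95 CPM in R256C and 3.49 ± 0.869 CPM in WT. DDR48, a repeat-rich protein induced by DNA damage and heat, averaged 34.9 ± 6.48 CPM in R256C and 31.0 ± 1.77 CPM in WT (log2 fold change 0.17, adjusted p = 0.367). Of its 50-base words, 67.5% occur once in the genome, so reads from its repeats may be missing from the counts.

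Among the glycogen enzymes, the synthase and the targeting subunit of its phosphatase rose, and the branching, debranching and degrading enzymes did not pass. GSY2 (YLR258W, chromosome XII, 660716 to 662833, plus strand), the main glycogen synthase, stood at 190, 331 and 210 CPM in R256C, against 109, 84.6 and 106 CPM in WT. GAC1 (YOR178C, chromosome XV, 667860 to 670241, minus strand), which brings the phosphatase Glc7 to glycogen synthase to activate it, had 69.5, 99.8 and 79.7 CPM in R256C, against 31.3, 30.5 and 41.8 CPM in WT. For both genes the strains did not overlap, and R256C replicate 2 was the highest. GSY2 rose 2.44-fold (log2 fold change 1.29 with SE 0.21, adjusted p by edgeR = 0.00172) and GAC1 2.41-fold (1.27, SE 0.17, adjusted p = 0.000682), and each passed in all 13 alternative fits. GLC3, the branching enzyme, averaged 88.4 ± 17.8 CPM in R256C and 74.6 ± 8.63 CPM in WT (SD, n = 3 each; log2 fold change 0.24, adjusted p = 0.219). GPH1, the phosphorylase that releases glucose units, averaged 54.2 ± 10.9 CPM in R256C and 47.9 ± 11.3 CPM in WT (0.18, adjusted p = 0.495). GDB1, the debranching enzyme, averaged 125.5 ± 9.10 CPM in R256C and 115 ± 40.0 CPM in WT (0.13, adjusted p = 0.654). Its change was -0.09 without WT 2 and 0.43 without WT 1, where it passed (adjusted p = 0.0379).

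Other glycogen genes, from a list of 16, split in both directions: 3 rose, 5 fell and 8 did not pass (18.8% and 31.2%, median log2 fold change -0.12). Over all genes tested 21.2% rose and 21.4% fell. GSY1, the second glycogen synthase, stood at 66.6, 161 and 69.6 CPM in R256C, against 41.9, 33.6 and 46.7 CPM in WT, and rose by 1.29 on the log2 scale (SE 0.33, edgeR adjusted p = 0.0137). GIP2, another protein that binds Glc7, rose 1.11 (adjusted p = 0.00504). The cyclins PCL8 (-0.75, adjusted p = 0.0105) and PCL10 (-0.69, adjusted p = 0.00662) fell; they direct the kinase Pho85 to glycogen synthase, which it inhibits. GLC8, a regulator of Glc7, fell as well (-0.37, adjusted p = 0.00529). PHO85, which belongs to the list of upstream signals and is not among the 16, also fell (-0.56, adjusted p = 0.00308). PIG2 (0.35), a relative of GIP2, also rose, and the remaining genes of the 16 that fell were UGP1 (-0.49), which makes the UDP-glucose used by the synthase, and GLG2 (-0.57), a primer of glycogen chains; these 3 were picked after their values were seen. Their highest adjusted p over the alternatives was 0.130 for PIG2, 0.0812 for UGP1 and 0.113 for GLG2.

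Of 6 genes for hexose phosphorylation and the pentose phosphate pathway, 2 rose (33.3%, against 21.2% of all genes tested) and 4 did not pass. SOL4, a 6-phosphogluconolactonase, stood at 11.1, 20.5 and 11.4 CPM in R256C, against 8.42, 6.18 and 8.70 CPM in WT, and rose 1.86-fold (log2 fold change 0.89 with SE 0.27, adjusted p by edgeR = 0.0283). Without R256C replicate 2 its adjusted p was 0.102, without WT 3 it was 0.0567, and with the replicate number as a block 0.0624. NQM1, a transaldolase, rose 1.39-fold, with 25.1, 26.3 and 23.9 CPM in R256C against 19.8, 15.7 and 18.6 CPM in WT (0.48, SE 0.13, adjusted p = 0.0165). Its adjusted p was 0.0541 without R256C replicate 1 and 0.0622 without replicate 2. HXK1, the hexokinase that glucose represses, had 121, 180 and 130 CPM in R256C, against 288, 113 and 277 CPM in WT. WT 2 lay below all R256C cultures and both other WT cultures above them. HXK1 did not pass with all libraries (log2 fold change -0.65, adjusted p = 0.133) and fell without WT 2 (-0.98, adjusted p = 1.49e-05). In the glucokinase gene GLK1, too, WT 2 lay below all R256C cultures and the strains overlapped, with 760, 1034 and 722 CPM in R256C against 1056, 428 and 888 CPM in WT (log2 fold change 0.09, adjusted p = 0.839; -0.21 without WT 2, adjusted p = 0.184). It overlaps a neighbouring annotated gene by 106 bases. GND2, a 6-phosphogluconate dehydrogenase, averaged 26.5 ± 2.05 CPM in R256C and 18.8 ± 5.35 CPM in WT (0.50, adjusted p = 0.0689). Its R256C cultures all lay above its WT cultures, and it passed without WT 1 (0.74, adjusted p = 0.00398) and with limma-voom (0.55, adjusted p = 0.0495). TKL2, a transketolase, averaged 48.1 ± 4.18 CPM in R256C and 55.7 ± 7.78 CPM in WT (-0.21, adjusted p = 0.212), and without WT 2 it fell (-0.32, adjusted p = 0.0150).

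Genes of oxidant defence moved in both directions. Of 4 genes, 1 rose and 1 fell (25.0% each, against 21.2% and 21.4% of all genes tested). CTT1 (YGR088W, chromosome VII, 654634 to 656322, plus strand), the cytosolic catalase, stood at 57.3, 66.9 and 58.7 CPM in R256C, against 41.7, 28.7 and 30.7 CPM in WT. The strains did not overlap, and it rose 1.81-fold (log2 fold change 0.86 with SE 0.15, adjusted p by edgeR = 0.00261), with a pass in all 13 alternative fits. GRX1, a glutaredoxin, had 127, 138 and 120 CPM in R256C, against 155, 190 and 160 CPM in WT, and fell (-0.39, SE 0.11, adjusted p = 0.0172). Its adjusted p was 0.0601 without R256C replicate 1 and 0.0857 without replicate 3. GRX1 and SOD2 are the 2 genes of the 39 in which WT 1 was the lowest WT culture and WT 2 the highest. SOD2, the mitochondrial superoxide dismutase, averaged 505 ± 54.0 CPM in R256C and 452 ± 21.0 CPM in WT and did not pass (0.16, adjusted p = 0.299), although its libraries did not overlap. GPX1, a peroxidase, averaged 15.7 ± 3.04 CPM in R256C and 10.2 ± 2.75 CPM in WT, at the edge of the threshold (0.63, adjusted p = 0.0513, from 0.00738 to 0.188 over the alternatives).

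The aldehyde and GABA enzymes did not pass. ALD3, an aldehyde dehydrogenase, averaged 47.9 ± 5.45 CPM in R256C and 34.1 ± 8.53 CPM in WT (SD, n = 3 each; log2 fold change 0.49, edgeR adjusted p = 0.0550), and it passed in 5 of 13 alternatives, among them the fit without WT 2 (0.32, adjusted p = 0.0364). Only 59.6% of its 50-base words occur once in the genome, and ALD2 is a closely similar adjacent copy, so its counts are uncertain. ALD4, the main mitochondrial aldehyde dehydrogenase, averaged 172 ± 22.7 CPM in R256C and 144 ± 25.3 CPM in WT (0.26, adjusted p = 0.195). GAD1, the glutamate decarboxylase that makes GABA, averaged 56.9 ± 11.1 CPM in R256C and 56.0 ± 13.8 CPM in WT (0.03, adjusted p = 0.924), and turned to -0.15 without WT 2.

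Genes of the cell surface and of membranes gave the most rises, 4 of 7 (57.1%, against 21.2% of all genes tested). The other 3 did not pass. Without R256C replicate 2, 1 of these 7 rose (14.3%, against 14.9% of all genes tested), and 2 of the 5 glycogen genes did. YGP1, a secreted glycoprotein of nutrient-limited cells, stood at 674, 765 and 574 CPM in R256C, against 421, 246 and 432 CPM in WT (1.83-fold, log2 fold change 0.87 with SE 0.22, adjusted p by edgeR = 0.0131). HSP30, a plasma membrane protein that holds back the proton pump Pma1, had 91.6, 108 and 78.6 CPM in R256C, against 54.8, 35.3 and 52.6 CPM in WT (1.95-fold, 0.97, SE 0.18, adjusted p = 0.00351). MSC1, known from an effect on meiotic recombination, had 192, 282 and 161 CPM in R256C, against 139, 82.3 and 116 CPM in WT (1.89-fold, 0.92, SE 0.24, adjusted p = 0.0149). In all of these the strains did not overlap. PHM7, a membrane protein of uncertain function, also rose, with 18.6 ± 2.40 CPM in R256C and 11.3 ± 2.32 CPM in WT (0.72, adjusted p = 0.0146). HSP30 passed in all 13 alternatives. Without R256C replicate 2 the adjusted p was 0.0571 for YGP1, 0.0551 for MSC1 and 0.0614 for PHM7, and without replicate 3 it was 0.0561 for PHM7. SPI1, a wall protein induced by weak acids, spanned the R256C values in WT, with 33.7, 41.0 and 30.3 CPM in R256C against 47.7, 15.8 and 31.2 CPM in WT (log2 fold change 0.16, adjusted p = 0.728; -0.18 without WT 2). The reticulon RTN2, which shapes the endoplasmic reticulum, had a log2 fold change of -0.16 (adjusted p = 0.478). That of OM45, a mitochondrial outer membrane protein, was 0.08 (adjusted p = 0.699) and turned to -0.08 without WT 2.

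Among 6 genes for protein turnover and cofactors, 1 rose and 1 fell (16.7% each, against 21.2% and 21.4% of all genes tested). UBI4 (YLL039C, chromosome XII, 64062 to 65207, minus strand), the polyubiquitin gene, which both heat shock factor and Msn2 and Msn4 can induce, stood at 102, 96.9 and 104 CPM in R256C, against 249, 141 and 183 CPM in WT. The R256C cultures were nearly equal and all lay below the lowest WT culture. The log2 fold change was -0.92 (SE 0.18, adjusted p by edgeR = 0.00469), the deepest fall of the 39, and it passed in all 13 alternatives. Because its ubiquitin repeats resemble each other, 81.8% of its 50-base words occur once in the genome. PAI3, the inhibitor of the vacuolar proteinase A, had 12.9, 20.0 and 17.6 CPM in R256C, against 8.42, 8.62 and 6.73 CPM in WT, and rose 2.11-fold (1.08, SE 0.20, adjusted p = 0.00324; passed in all 13 alternatives). TFS1, an inhibitor of the vacuolar carboxypeptidase Y, had 74.5, 95.2 and 74.9 CPM in R256C, against 145, 77.5 and 112 CPM in WT (-0.45, adjusted p = 0.116), and it fell without WT 2 (-0.66, adjusted p = 0.000294). PNC1, the nicotinamidase of NAD salvage, averaged 458 ± 76.7 CPM in R256C and 363 ± 112 CPM in WT (0.34, adjusted p = 0.262). HSP31, a methylglyoxalase (-0.12, adjusted p = 0.350), and DCS2, a regulator of mRNA cap turnover (0.26, adjusted p = 0.358), did not pass.

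Within the group, the number of STRE cores did not order the changes. Of the 23 genes with 2 or more cores within 500 bases, 6 rose (median log2 fold change 0.26); of the 11 with 1 core, 3 rose and 2 fell (0.03); and of the 5 with no core, MSN4, GAC1 and HSP30 rose while MSN2 and GRE1 did not pass (0.97). HSP12, with 5 cores within 500 bases, did not pass. Across the other coding genes the shares did follow the count: 33.3% of 454 genes with 2 or more cores rose and 15.2% fell, 22.1% of 1507 genes with 1 core rose and 19.2% fell, and 18.1% of 3798 genes with none rose and 25.4% fell. Without WT 2 the shares that rose and fell were 40.2% and 25.1% with 2 or more cores, 30.6% and 28.8% with 1, and 27.2% and 33.6% with none, and with library totals alone 37.9% and 10.1%, 26.7% and 11.9%, and 23.2% and 16.9%. These are descriptions over genes, which are not independent replicates, no test was made of them, and this breakdown was added after the values had been seen.

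**Figure D3:**
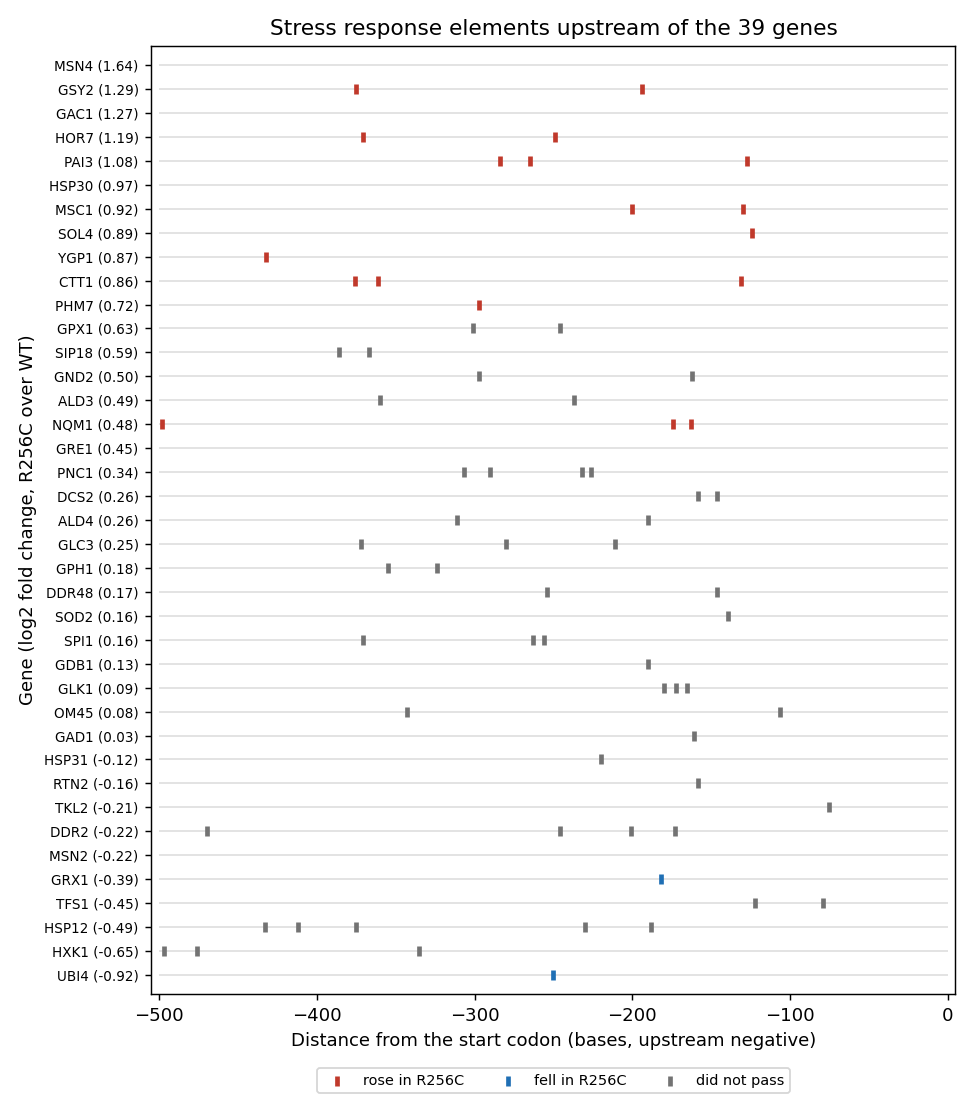
Position of each STRE core (either strand) within 500 bases before the start codon, as distance in bases, for the 39 genes ordered by log2 fold change (in brackets); marks are red for genes that rose, blue for those that fell and grey for those that did not pass. MSN4, GAC1 and HSP30, near the top, have no mark, while HSP12, near the bottom, has 5.

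Several of these genes have a counterpart that does related work, in many cases the form used in growth on glucose, and 23 such pairs were followed. Both genes belong to the 39 in MSN4 with MSN2, DDR2 with HOR7 and GRE1 with SIP18, so these pairs do not set a stress gene against a growth form. In 10 pairs, MSN4 with MSN2 among them, the ratio of the first to the second gene was higher in every R256C culture than in every WT culture. In 5 pairs, DDR2 with HOR7 among them, it was lower, and in 8 the strains overlapped. Of all single genes tested, 27.7% lay above and 27.3% below in this way. No such share was computed for ratios of other genes, so the counts are not read as a trait of these pairs. The exact permutation p of the 15 was 0.1 each, the smallest possible, and 0.153 adjusted over the 23 pairs. In several pairs the second gene rose and the stress-type gene did not pass. HXK2, the main hexokinase in glucose, stood at 2194, 1569 and 1741 CPM in R256C, against 719, 1307 and 814 CPM in WT, and rose (log2 fold change 0.96, edgeR adjusted p = 0.0141), while HXK1 did not pass. GND1, the main 6-phosphogluconate dehydrogenase, had 565, 572 and 544 CPM in R256C, against 186, 339 and 203 CPM in WT (1.21, adjusted p = 0.00263). SED1, a major wall protein paired with SPI1, rose 1.57 (adjusted p = 0.00021), with 5304 ± 275 CPM in R256C and 1786 ± 139 CPM in WT (SD, n = 3 each). Rises were also found for the cap-turnover gene DCS1 (1.11, adjusted p = 0.000276), against 0.26 for DCS2, and for the glucokinase relative EMI2 (0.85, adjusted p = 0.0262), against 0.09 for GLK1. The transketolase TKL1 (0.46, adjusted p = 0.0337) and the reticulon RTN1 (0.45, adjusted p = 0.0158) rose where TKL2 and RTN2 had values below 0. Of these rises, HXK2 was lost without R256C replicate 1 (adjusted p = 0.0616) or WT 3 (0.0666), EMI2 without R256C replicate 1 (0.0665) or 2 (0.102) or WT 3 (0.0630), TKL1 without any single R256C library (0.0573 to 0.132) or WT 3 (0.126), and RTN1 likewise (0.0545 to 0.0707, and 0.0872).

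In other pairs the counterpart fell, did not pass, or rose along with the stress-type gene. ALD6, the cytosolic acetaldehyde dehydrogenase, fell (-0.95, adjusted p = 0.00164 by edgeR) next to 0.26 for ALD4, and the peroxidase HYR1 fell (-0.70, adjusted p = 0.00285) next to 0.63 for GPX1. SOL3 (0.01, adjusted p = 0.968), TAL1 (-0.40, adjusted p = 0.183), PIG1 (-0.14, adjusted p = 0.519) and SOD1 (-0.43, adjusted p = 0.0511) did not pass. Without WT 2, SOL3 rose (0.21, adjusted p = 0.0492) and SOD1 fell (-0.30, adjusted p = 0.0200). TAL1 fell without WT 1 (-0.59, adjusted p = 0.0313), and SOD1 fell without WT 1 (-0.54, adjusted p = 0.0174) and by DESeq2's test (-0.43, adjusted p = 0.0135). Proteinase A, the target of PAI3, is encoded by PEP4, which rose 0.61 (adjusted p = 0.00187), and carboxypeptidase Y, the target of TFS1, by PRC1, which fell (-0.63, adjusted p = 0.00226). The catalase CTA1 of peroxisomes rose 0.25 (adjusted p = 0.0460), a call lost without any single R256C library (0.0954 to 0.124), without WT 2 (0.0533) or WT 3 (0.106), or with no filter on low counts (0.0532), or with the replicate number as a block (0.0841). In the pairs GSY2 and GSY1, HSP30 and MRH1, GRX1 and GRX2, and GRE1 and SIP18, the log2 ratio differed by 0.09, -0.04, -0.09 and 0.08 between R256C and WT, and the strains overlapped. Of these, GSY1 and MRH1 (log2 fold change 0.99, adjusted p = 0.0034 by edgeR) rose together with GSY2 and HSP30.

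**Figure D4:**
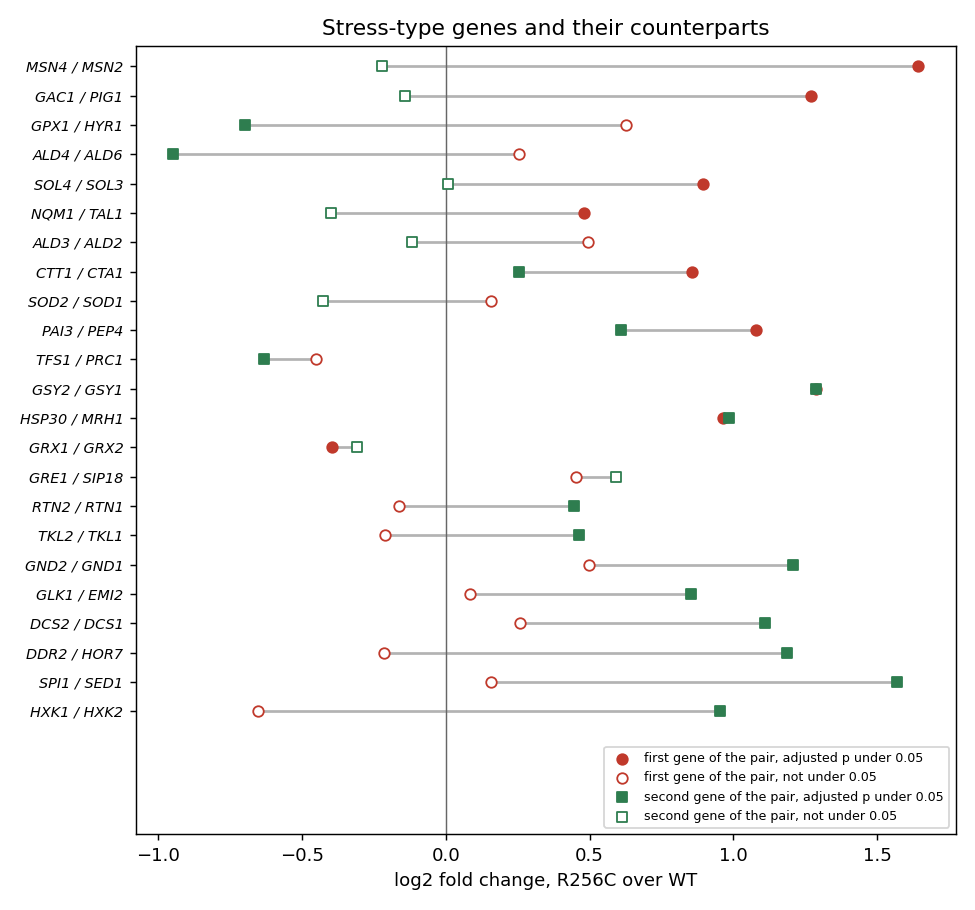
Log2 fold change (R256C over WT) of the first gene of each pair (red circles) and of the second (green squares), joined by a line and ordered by their difference; filled symbols have an adjusted p under 0.05. MSN4 with MSN2 and GAC1 with PIG1 are widest apart at the top, and HXK1 with HXK2 at the bottom.

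Genes around the pathway were read off the same edgeR fit, in lists chosen with earlier results of these data known. Over all genes tested, 21.2% rose and 21.4% fell, and with library totals alone 25.9% rose and 14.0% fell. Of 29 other genes known as stress-induced, 13 rose and 5 fell (44.8% and 17.2%; 15 and 2 with library totals alone). Those with the smallest p were PRB1 (log2 fold change 1.96), the vacuolar protease B, with 788 ± 32.4 CPM in R256C and 203 ± 28.7 CPM in WT, ISF1 (1.59), GUT2 (1.48) and ECL1 (1.46). Of 16 transcription factors of stress and nutrient control, 9 rose and 1 fell (56.2% and 6.25%). PHD1 (1.68, adjusted p = 2.3e-05), a factor of filamentous growth, COM2 (1.67, adjusted p = 6.3e-05), a zinc finger factor, GIS1 (1.18, adjusted p = 0.000246), a factor of the nutrient response, and SKO1 (0.68), of the osmotic response, were those with the smallest p. The factor that fell was HSF1 (-0.26, adjusted p = 0.0364), the heat shock factor, named after its value was seen; it passed in 5 of 13 alternatives and not with library totals alone (-0.17, adjusted p = 0.216), the 10 CPM filter (0.0512), without any single R256C library (0.0709 to 0.134), without WT 1 (0.0873) or WT 3 (0.0992), or with the replicate number as a block (0.0749). Among 30 genes of the protein kinase A, Rim15 and related signals upstream of Msn2 and Msn4, 5 rose and 4 fell (16.7% and 13.3%; 5 and 1 with library totals alone). TPK2 (0.95), a catalytic subunit of protein kinase A, SDC25 (0.48) and SNF1 (0.40), the kinase of glucose derepression, were among the rises. The annotation used here gives SDC25 no coding sequence, so its rise is not read as that of a working Ras activator.

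The stress genes outside the group did not share 1 direction. Of 7 trehalose genes, 3 rose (42.9%, against 21.2% of all genes tested) and 4 did not pass. TPS2 (1.95), TPS1 (0.97) and TPS3 (0.45) of trehalose synthesis were the rises, and TPS3 did not pass without WT 3 (adjusted p = 0.0532). Of 18 heat shock chaperone genes, 12 fell (66.7%, against 21.4% of all genes tested) and 6 did not pass (median log2 fold change -1.02). Without WT 2 all 18 fell (-1.10), against 29.5% of all genes tested. STI1 (-1.34), HSP60 (-1.25), HSP10 (-1.06) and HSP26 (-1.42) had the smallest p. Of 25 ribosome biogenesis genes, a set that general stress usually lowers, 9 fell and 16 did not pass (median -0.26). The falls were 36.0%, against 21.4% of all genes tested. With library totals alone 1 rose and 7 fell (4.0% and 28.0%, against 25.9% and 14.0% of all genes tested). CIC1 (-0.54), RPF1 (-0.47), RRP5 (-0.57) and NOG1 (-0.99) had the smallest p.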

How the data were processed

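Per the labels' protocols, cell walls were digested with enzyme to release RNA, and a stranded kit turned oligo(dT)-selected mRNA into libraries. The deposited table holds raw counts of reads per gene for 6 libraries. Build R64, TopHat, HTSeq and DESeq, without versions, are named in the submitters' processing notes, while counting settings (use of strand included) were not given in the sources used here. Of 7131 rows, 5 are the counter's summary rows, which entered neither library sizes nor tests. They hold reads outside genes (3.15 to 4.07% of uniquely placed reads), ambiguous reads (7.428 to 8.132%) and alignments that are not unique (53.062 to 57.176% of the table's total). A read placed at several loci may be counted more than once among those alignments, so their share is not a share of reads. No column was left without a sample (0). Identifiers were matched to the RefSeq R64 annotation for 6048 of 7126 gene rows, which also gave the promoters; overlaps were checked against this annotation only, and if strand was not used, overlapping or antisense RNAs could not be told apart.

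Counts were fitted with edgeR 4.0.16 in R 4.3.3 (filterByExpr, TMM, quasi-likelihood test, genotype as the only term, Benjamini-Hochberg over 6337 genes; called at an adjusted p under 0.05). SE is the log2 fold change over the root of F. Alternatives were DESeq2 1.42.0, limma-voom (limma 3.58.1), other scalings and filters, each library left out and a replicate block. Each pair of libraries of a strain differed beyond counting noise (chi-square over its degrees of freedom at least 7.03). It was 7.03 to 14 within R256C and 119 to 237 between strains. Within WT it was 14.5 for WT 1 with WT 3, 78.5 for WT 2 with WT 3 and 152 for WT 1 with WT 2, which is inside the range between strains. The correlation of log2 CPM was 0.9765 for WT 1 with WT 2 and 0.9573 to 0.9643 between strains. On simulated counts of 6314 genes, 63.6%, 95.4% and 100% of changes of 1.5-fold, 2-fold and 4-fold were recovered. The simulation changed 200 genes and gave every gene the same spread between cultures (coefficient of variation 0.133). By median the 39 genes varied more between cultures than all genes tested did, so these rates may be too high for them. Pair ratios used log2 of CPM + 0.5. Overlapping 50-base words of each gene were looked up on both strands of the genome. The genes and lists were chosen with earlier results of these data known; named genes are the 39, their pair genes, ACT1 and up to 4 genes with the smallest p of each list, besides those said to be chosen later. Intervals and p-values rest on the spread of 3 cultures per strain, and on fewer in the strain from which a library was left out.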

Additional observations from a re-analysis of the deposited data

How the results depend on the processing

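Of 506 recomputed log2 fold changes of the 39 genes, 464 kept direction and side of the threshold, 11 no longer passed, 21 passed only in the alternative and 10 changed sign, all 10 in genes that did not pass in the fit of all libraries. DDR2 was 0.008 with limma-voom. The other sign changes came with a library left out, over which the values ran from -0.88 (without WT 2) to 0.11 (without WT 1) for HSP12, -0.586 to 0.18 for DDR2, -0.09 to 0.426 for GDB1, -0.21 to 0.35 for GLK1, -0.15 to 0.211 for GAD1, -0.18 to 0.594 for SPI1, -0.075 to 0.251 for OM45 and, among pair genes, -0.12 to 0.206 for SOL3. With a library left out, 7 to 17 of the 39 rose and 1 to 8 fell, and over all genes 876 to 1875 rose and 822 to 1884 fell. By role, rises ranged from 1 to 2 for small stress proteins and oxidant defence, 0 to 3 for hexose phosphorylation and the pentose phosphate pathway, 0 to 1 for aldehyde and GABA enzymes and 1 to 4 for the cell surface, and falls from 0 to 1 for regulators and oxidant defence, 0 to 2 for small stress proteins and hexose phosphorylation, and 1 to 2 for protein turnover. By list, falls ranged from 3 to 8 (other glycogen genes), 1 to 9 (signalling), 0 to 3 (transcription factors), 3 to 9 (other stress genes), 0 to 1 (trehalose), 9 to 18 (chaperones) and 4 to 12 (ribosome biogenesis), and rises from 3 to 8 (signalling), 6 to 10 (transcription factors), 9 to 14 (other stress genes), 2 to 3 (trehalose) and 0 to 3 (ribosome biogenesis). Scaling by library totals alone moved the median of all genes from -0.01 to 0.09 and gave 1639 rises and 886 falls over all genes, 1 fall in signalling, 0 among transcription factors, 2 among other stress genes and 1 rise in ribosome biogenesis, while the 39 genes kept 12 rises and 2 falls, all shared. DESeq2's test, limma-voom and the 10 CPM filter, under which 38 of the 39 were tested, each gave 2 rises in oxidant defence, as did DESeq2's size factors, and 1 for aldehyde and GABA enzymes; DESeq2's test and that filter gave 1 rise in ribosome biogenesis, and the filter and the block 0 falls among transcription factors. Pair ratios with a pseudocount of 1 moved by less than the spread between replicates. No sign was seen that the replicate numbers pair the libraries. Same-numbered libraries had correlations of -0.111, -0.068 and -0.069 in their deviations from the strain means, and no library correlated best with its own number. With 3 libraries per strain these values cannot show that a number does not mark a shared day. With the replicate block 11 of the 39 rose and 2 fell, 1 hexose and pentose phosphate gene rose, and 2 signalling genes fell. Depth limits SIP18, with 25 reads in its lowest library.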
